A study of Homo sapiens with 16 samples.

Results

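The genes described here encode 40 proteins of the nucleolus and of ribosome production, chosen by name among 19970 protein-coding genes of the RefSeq annotation (GRCh38.p14). For each gene, peaks of 3 histone marks within 2 kb of either gene end were read from the peak lists of 12 chromatin immunoprecipitation sequencing (ChIP-seq) libraries. The cells were Toledo, an established human diffuse large B-cell lymphoma line. Cultures received TP-064, which inhibits the protein arginine methyltransferase CARM1, at 5 uM over 6 days, or the solvent DMSO over the same time, and both groups share the line and the medium. H3K27ac, H3K4me3 and H3K4me1 had 2 libraries each with the inhibitor and 2 with DMSO. The series title places the work among lymphomas that carry CREBBP or EP300 mutations and concerns histone acetylation after CARM1 inhibition, and 1 cell line was measured here.

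Ribosomes are built in the nucleolus, where RNA polymerase I transcribes the ribosomal RNA precursor. Small nucleolar ribonucleoproteins modify that precursor, and the small subunit processome and large subunit assembly factors fold, cut and package it. These genes are active in most growing cells and many are known targets of MYC. H3K4me3 and H3K27ac mark active promoters, H3K27ac also active enhancers, and H3K4me1 mainly enhancers and the flanks of promoters.

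Each library came with its own peak list of positions only, so a gene is described by the presence of a peak and by its width. A mark counts as lost at a gene with a peak at its ends in each DMSO library and in no inhibitor library, and as gained in the opposite case. The lists held 10048 to 12476 peaks for H3K4me3, 4016 to 7885 for H3K27ac and 4094 to 25058 for H3K4me1. DMSO replicate 1 had the longest list for every mark. Read depth is unknown, and the inhibitor and DMSO libraries carry different lane numbers in the labels, so an effect of lane cannot be told apart from one of treatment. Whether replicate libraries were grown as separate cultures is not stated, so the spread behind each p-value may be only technical. H3K4me3 was present in all 4 libraries at 7 of 9 B-cell markers and at 0 of 7 T and NK cell, 0 of 5 myeloid and 0 of 6 epithelial and stromal markers.

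Motifs in the promoters, which the choice of genes did not use, were counted beside those of all genes, with no test. RefSeq promoter windows, 250 bases before to 50 after the start of transcription (GRCh38.p14), were given for 33 of the 40 genes. The E-box CACGTG, the sequence bound by MYC with MAX, stood in 11 of the 33 (33.3%), against 8.87% of 15812 promoters and 10.8% of the 8201 promoters of genes with H3K4me3 in all 4 libraries. Of the 13 E-boxes, 10 began within 50 bases of the start, each in a different gene. E-box positions were not counted over all promoters, so this count does not set the listed genes apart. CCGGAAG, a core bound by ETS factors, stood in 12 of 33 (36.4%), against 14.2% of all promoters and 22.4% of those with H3K4me3. The NRF1 motif stood in 24.2%, against 8.59% and 14.0%. GGGCGG, the GC box, stood in 66.7%, against 58.5% and 72.7%, and CCAAT in 39.4%, against 36.3% of all promoters. Motifs were searched on both strands. AAGATGGC was found in 3 of the 33 promoters (9.09%, against 3.91% and 6.46%) and TATAAA in 2 (6.06%, against 9.64% and 5.00%). Except for GGGCGG, each motif was missing from most of the 33. A match describes these letters only and is not a bound site.

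6 promoters of genes named in the results below are shown as examples. GAR1 and UTP3 are among the genes called for H3K27ac loss, UTP18 and NAT10 kept H3K27ac, RRP9 had a narrower H3K4me3 peak, and FBL encodes the methyltransferase of box C/D particles. Capitals mark CACGTG and CCGGAAG on either strand, and no match of one overlaps the other. The start of transcription follows the first 250 bases.
GAR1, chr4:109815260-109815559, plus strand: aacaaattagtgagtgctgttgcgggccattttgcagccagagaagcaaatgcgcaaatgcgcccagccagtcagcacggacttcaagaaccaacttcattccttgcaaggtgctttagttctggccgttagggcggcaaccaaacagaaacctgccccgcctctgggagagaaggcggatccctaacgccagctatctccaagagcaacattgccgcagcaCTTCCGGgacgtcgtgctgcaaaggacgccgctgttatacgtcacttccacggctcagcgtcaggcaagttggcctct
UTP3, chr4:70688282-70688581, plus strand: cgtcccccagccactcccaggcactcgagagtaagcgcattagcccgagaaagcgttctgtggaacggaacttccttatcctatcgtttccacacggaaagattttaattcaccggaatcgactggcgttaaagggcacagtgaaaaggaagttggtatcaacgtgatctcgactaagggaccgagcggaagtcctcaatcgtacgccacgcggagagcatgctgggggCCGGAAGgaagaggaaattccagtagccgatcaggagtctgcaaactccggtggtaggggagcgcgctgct
UTP18, chr17:51260296-51260595, plus strand: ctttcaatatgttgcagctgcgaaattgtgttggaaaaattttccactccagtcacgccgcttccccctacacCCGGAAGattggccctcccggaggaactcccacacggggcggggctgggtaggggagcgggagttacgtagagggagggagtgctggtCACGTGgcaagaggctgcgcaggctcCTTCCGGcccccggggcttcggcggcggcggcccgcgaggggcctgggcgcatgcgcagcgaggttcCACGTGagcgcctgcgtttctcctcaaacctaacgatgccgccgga
NAT10, chr11:34105379-34105678, plus strand: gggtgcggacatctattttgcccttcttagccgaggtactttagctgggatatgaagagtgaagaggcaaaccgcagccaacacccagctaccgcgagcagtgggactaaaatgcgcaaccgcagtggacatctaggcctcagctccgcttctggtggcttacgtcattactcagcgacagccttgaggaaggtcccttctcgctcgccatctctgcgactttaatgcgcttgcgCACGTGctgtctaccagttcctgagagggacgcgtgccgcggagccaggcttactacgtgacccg
RRP9, chr3:51941855-51942154, minus strand: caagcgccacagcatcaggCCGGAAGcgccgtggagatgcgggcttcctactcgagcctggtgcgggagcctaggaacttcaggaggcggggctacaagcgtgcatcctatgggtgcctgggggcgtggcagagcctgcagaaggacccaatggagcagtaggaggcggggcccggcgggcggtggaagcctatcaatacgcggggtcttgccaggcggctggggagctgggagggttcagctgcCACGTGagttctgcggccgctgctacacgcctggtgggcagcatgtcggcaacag
FBL, chr19:39846330-39846629, minus strand: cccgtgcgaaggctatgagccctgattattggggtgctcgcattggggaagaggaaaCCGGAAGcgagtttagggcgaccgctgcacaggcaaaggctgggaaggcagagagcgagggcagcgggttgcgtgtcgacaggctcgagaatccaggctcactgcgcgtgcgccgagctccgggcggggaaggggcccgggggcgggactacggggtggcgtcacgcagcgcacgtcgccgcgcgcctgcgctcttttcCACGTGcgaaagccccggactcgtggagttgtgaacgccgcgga
The E-box began 5 bases before the start in RRP9, 15 before it in NAT10, 6 after it in FBL, and 89 before and 4 after it in UTP18. GAR1 and UTP3 held no E-box in this window, and their CCGGAAG matches began 28 and 21 bases before the start. The promoter of NOP56, also called for H3K27ac loss, is not shown and held neither motif. The promoter of UBTF, which kept H3K27ac in all 4 libraries, also held neither, and the peak that NAT10 kept lay at its 3' end. A link between these motifs and loss of the mark was not tested.

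H3K4me3 was kept at these genes. It was present in all 4 libraries at 38 of the 40 (95.0%, against 49.0% of all genes) and was lost at 0 of 38, where 5.67% of the 10800 genes marked in both DMSO libraries lost it. It was gained at 0 of the 2 genes without a DMSO peak near a gene end (0.0114% of such genes). These include PES1, which carried the mark at its start in all 4 libraries and so could not gain it. Their median summed width was 2401.5 and 2190 bp with the inhibitor and 2965.5 and 2748.5 bp with DMSO, against 2086 and 1910 bp with the inhibitor and 2527 and 2357 bp with DMSO over all 9781 genes marked in every library. Of the 38 genes, 23 had a peak that also touched the end of another protein-coding gene, and none shared a peak with another listed gene.

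**Figure D1:**
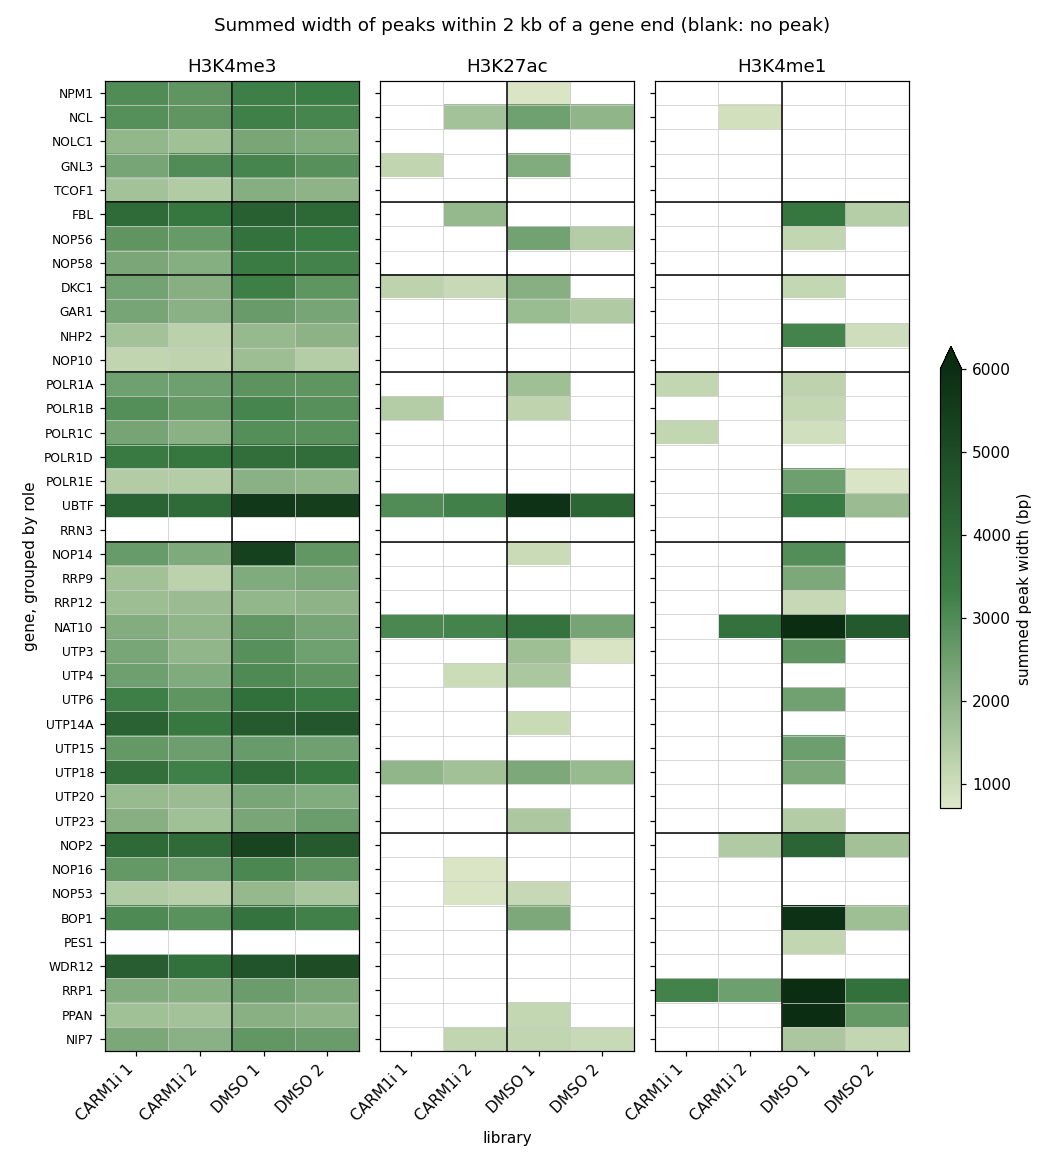
Summed width in bp of the peaks within 2 kb of a gene end, for 40 genes (rows, grouped by role) in 4 libraries of each mark (columns, inhibitor libraries left of the line in each panel). H3K4me3 fills 38 of 40 rows in every library, H3K27ac is present in 6 and 10 genes with the inhibitor and 20 and 8 with DMSO, and H3K4me1 in 3 and 4 genes with the inhibitor and 24 and 10 with DMSO.

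H3K4me3 peaks were narrower with the inhibitor at most of these genes, as they were over all genes. Centring on each library's median over all genes removes a shift common to all genes by construction, so centred widths cannot show it. The log2 ratio of summed width, inhibitor over DMSO, was below 0 at 37 of 38 genes, with a median of -0.29 and a range from -0.65 to 0.03. Over all 9781 genes tested the median was -0.27. Both inhibitor libraries lay below both DMSO libraries at 33 of the 38 genes, against 83.4% of all genes. The exceptions were GNL3, GAR1, POLR1B, UTP15 and UTP18, whose groups overlapped. A limma fit over all 9781 genes called 7 of the 38 narrower and 0 wider at an adjusted p under 0.05, against 19.6% of all genes called narrower and 0.0511% wider. With each library's widths centred on its median over all genes, the median of the 38 was 0.0026, 19 of them lay below 0, and limma called 0 of 38 (7 with an unadjusted p under 0.05), against 2.61% of all genes narrower and 0.276% wider. The count rested on single libraries: it was 20 without inhibitor replicate 1 and 2 without inhibitor replicate 2 or without DMSO replicate 1, where 43.2%, 8.91% and 7.38% of all genes changed width.

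**Figure D2:**
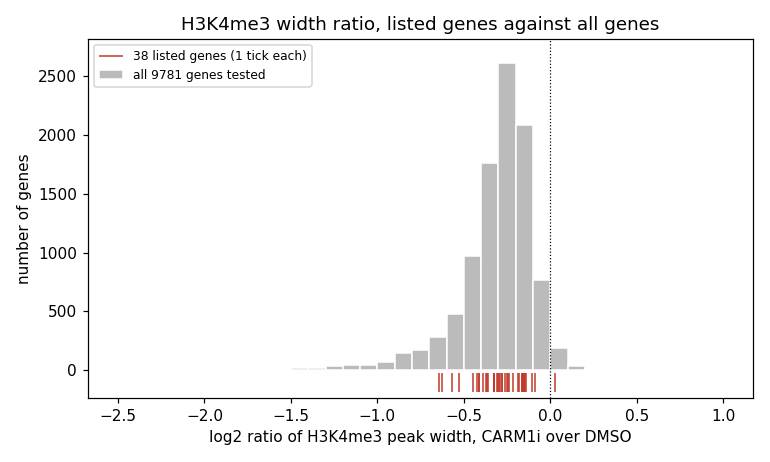
Histogram of the log2 ratio of H3K4me3 peak width, inhibitor over DMSO, for all 9781 genes with a peak in every library (grey bars, number of genes per 0.1 log2 units), with a red tick for each of the 38 listed genes. The ticks lie within the grey distribution, with medians of -0.29 and -0.27, which centring the widths by library brings to 0.0026 and 0.02.

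Box C/D particles place methyl groups on ribosomal RNA, and their 3 listed proteins spanned much of that range. NOP58, a scaffold protein of the particle, had summed H3K4me3 widths of 2306 and 2149 bp with the inhibitor and 3399 and 3195 bp with DMSO (log2 ratio -0.57 ± 0.10 SE, limma adjusted p = 0.0122). The inhibitor widths were well below both DMSO widths, and the call held with any 1 library left out (limma, adjusted p from 0.00323 to 0.0956 over all alternatives, the highest with centred widths). NOP56, its partner scaffold, had 2744 and 2644 bp with the inhibitor and 3718 and 3356 bp with DMSO (log2 ratio -0.39 ± 0.10 SE, limma adjusted p = 0.0354). FBL, fibrillarin, had 3937 and 3540 bp with the inhibitor and 4309 and 4041 bp with DMSO, and its log2 ratio of -0.16 did not pass (limma adjusted p = 0.213) and was 0.13 with centred widths. FBL's sum holds a peak of 2094 and 1834 bp with the inhibitor and 2026 and 1982 bp with DMSO at its 3' end, shared with DYRK1B. The peak at its own start measured 1843 and 1706 bp with the inhibitor and 2283 and 2059 bp with DMSO.

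Box H/ACA particles make pseudouridine in ribosomal RNA, and 0 of their 4 listed genes passed the width test, against 19.6% of all genes called narrower. Their median log2 ratio was -0.39, against -0.27 over all genes tested. DKC1, the pseudouridine synthase, came nearest: it had 2418 and 2122 bp with the inhibitor and 3308 and 2757 bp with DMSO, groups that do not overlap (log2 ratio -0.41 ± 0.12 SE, limma adjusted p = 0.0512). It passed in 7 of the alternative settings, among them without inhibitor replicate 1 (limma adjusted p = 0.015) and without DMSO replicate 2 (limma adjusted p = 0.0127; range over all alternatives 0.0127 to 0.431). The other core proteins of these particles, GAR1, NHP2 and NOP10, had log2 ratios of -0.16, -0.41 and -0.37, and GAR1's was 0.13 with centred widths.

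Among RNA polymerase I and its factors, 3 of 6 genes with a peak passed, against 19.6% of all genes called narrower. Their median log2 ratio of -0.26 was nevertheless closer to 0 than the -0.39 of the box H/ACA genes, of which 0 passed. The counts by role therefore do not rank the roles, and a difference between roles in H3K4me3 width was not tested. UBTF, the factor that holds ribosomal DNA in an open, transcribed state, had the widest H3K4me3 of this group, at 4175 and 3938 bp with the inhibitor and 5634 and 5445 bp with DMSO (log2 ratio -0.45 ± 0.10 SE, limma adjusted p = 0.0259). POLR1E, a polymerase I subunit, had 1412 and 1395 bp with the inhibitor and 2062 and 1982 bp with DMSO (log2 ratio -0.53 ± 0.11 SE, limma adjusted p = 0.024). POLR1C, a subunit shared with RNA polymerase III, had 2385 and 2080 bp with the inhibitor and 2917 and 2837 bp with DMSO (log2 ratio -0.37 ± 0.11 SE, limma adjusted p = 0.048). In these 3 genes both inhibitor widths lay below both DMSO widths. The largest subunits did not pass: POLR1A had 2491 and 2515 bp with the inhibitor and 2801 and 2750 bp with DMSO (log2 ratio -0.15, 0.14 with centred widths). POLR1B had 2920 and 2663 bp with the inhibitor and 3144 and 2871 bp with DMSO, overlapping groups (log2 ratio -0.11, 0.18 with centred widths). POLR1D, shared with RNA polymerase III as well, had 3431 and 3560 bp with the inhibitor and 3846 and 3865 bp with DMSO (log2 ratio -0.14, 0.15 with centred widths).

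The small subunit processome held both ends of the range, and 1 of its 12 genes passed, against 19.6% of all genes called narrower. RRP9, a protein of the U3 particle that guides early cleavage of the ribosomal RNA precursor, had 1676 and 1277 bp with the inhibitor and 2231 and 2292 bp with DMSO (log2 ratio -0.63 ± 0.15 SE, limma adjusted p = 0.0295), and was the only 1 of the 12 processome genes to pass. NOP14 had a lower ratio of -0.65 but did not pass: it had 2617 and 2250 bp with the inhibitor and 5328 and 2703 bp with DMSO. The high value of DMSO replicate 1 includes a second peak of 2145 bp at the 3' end that no other library had and that also touches SLC75A1, and without that replicate the ratio was -0.16. UTP15 had 2675 and 2537 bp with the inhibitor and 2614 and 2496 bp with DMSO, overlapping groups, and the highest ratio of the 38, 0.03. UTP18 came next, with 3792 and 3251 bp with the inhibitor and 3931 and 3542 bp with DMSO (log2 ratio -0.09, 0.20 with centred widths).

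Of the nucleolar proteins with several roles, 1 of 5 passed, against 19.6% of all genes called narrower. TCOF1, treacle, which supports RNA polymerase I transcription, had 1656 and 1445 bp with the inhibitor and 2137 and 2017 bp with DMSO (log2 ratio -0.42 ± 0.12 SE, limma adjusted p = 0.0469). NPM1, nucleophosmin, had 2971 and 2730 bp with the inhibitor and 3287 and 3319 bp with DMSO, groups that do not overlap (log2 ratio -0.21, limma adjusted p = 0.111; 0.076 with centred widths). NCL, nucleolin, had 2899 and 2741 bp with the inhibitor and 3267 and 3139 bp with DMSO (log2 ratio -0.18, limma adjusted p = 0.143; 0.11 with centred widths). Among the large subunit assembly factors 0 of 8 genes with a peak passed, with log2 ratios around a median of -0.27. Except for NOP58, each of the 7 calls was lost when at least 1 library was left out: limma adjusted p was 0.065 for RRP9, 0.0856 for UBTF, 0.0943 for NOP56, 0.141 for TCOF1 and 0.156 for POLR1C without inhibitor replicate 2. It was 0.107 for POLR1E, 0.0863 for UBTF, 0.2 for NOP56, 0.208 for TCOF1 and 0.178 for POLR1C without DMSO replicate 1, and 0.0623 for TCOF1 and 0.0685 for POLR1C without DMSO replicate 2.

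**Figure D3:**
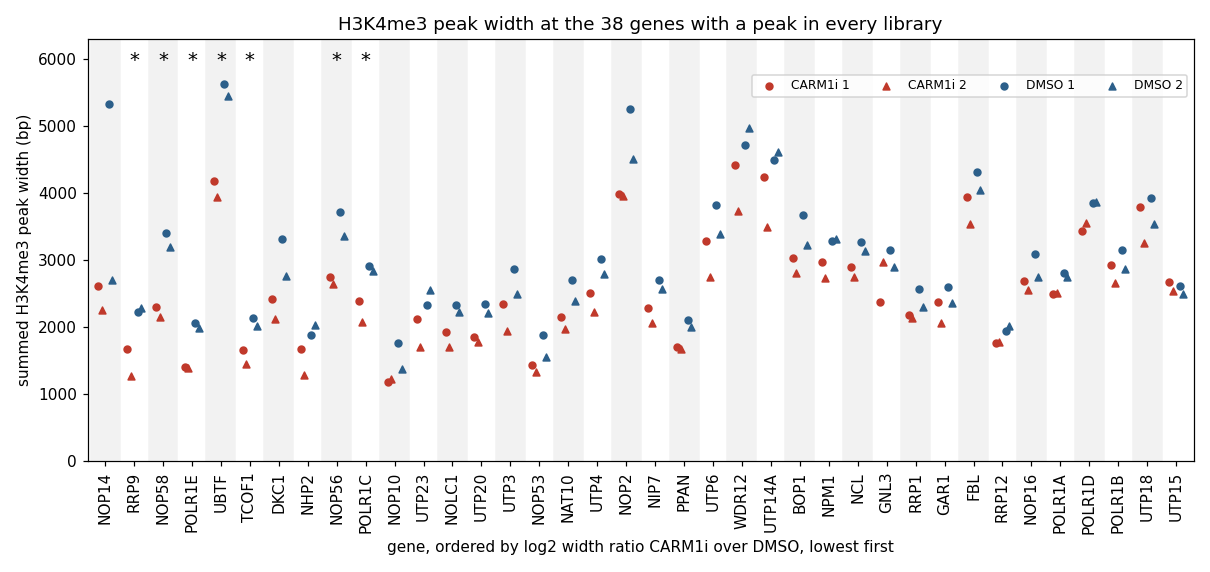
Summed H3K4me3 peak width in bp (vertical axis) in each of the 4 libraries for the 38 genes with a peak in every library, ordered by log2 ratio (red, inhibitor; blue, DMSO; circles, replicate 1; triangles, replicate 2), with a star for a limma adjusted p under 0.05. Red symbols lie below both blue ones in 33 of 38 genes, and with widths centred by library 19 of the 38 ratios lie below 0 and 0 pass.

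The H3K4me3 peak that covers the start of transcription was then measured on each side of the start, where the RefSeq promoter table gave it and 1 peak covered it in all 4 libraries. This was so for 32 listed genes and 7698 genes in all. Downstream of the start, the median extent at the listed genes was 1213 and 1140.5 bp with the inhibitor and 1501.5 and 1334 bp with DMSO, and the mean was shorter with the inhibitor at 32 of 32, against 93.5% of all genes. Upstream, it was 1005 and 894 bp with the inhibitor and 1164.5 and 1104.5 bp with DMSO, shorter at 30 of 32, against 94.5% of all genes. The 2 exceptions were UTP15 and UTP18, whose upstream mean was longer with the inhibitor by 115.5 and 110 bp.

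At most of the listed genes the peak was shortened more downstream of the start than upstream. The median difference, inhibitor minus DMSO, was -239 bp downstream and -143 bp upstream, against -187 and -181 bp over all genes. The downstream side was shortened more at 25 of 32 genes (78.1%), against 51.3% of all genes and 63 of 105 genes (60.0%) of a wider ribosome biogenesis list. Leaving out 1 library at a time gave 22 to 25 of 32. UBTF had the largest downstream difference, with extents of 3090 and 3162 bp with the inhibitor and 4417 and 4324 bp with DMSO, while its upstream extents were 1084 and 775 bp with the inhibitor and 1216 and 1120 bp with DMSO. RRP9 went the other way: upstream extents of 586 and 411 bp with the inhibitor and 1052 and 1131 bp with DMSO, and downstream extents of 1089 and 865 bp with the inhibitor and 1178 and 1160 bp with DMSO. No test was made of the counts, which describe the list beside all genes. Some start peaks also touch the end of another gene, such as RRP9 with PARP3, UTP15 with ANKRA2 and POLR1C with YIPF3. Upstream of the start may therefore also be near a gene.

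**Figure D4:**
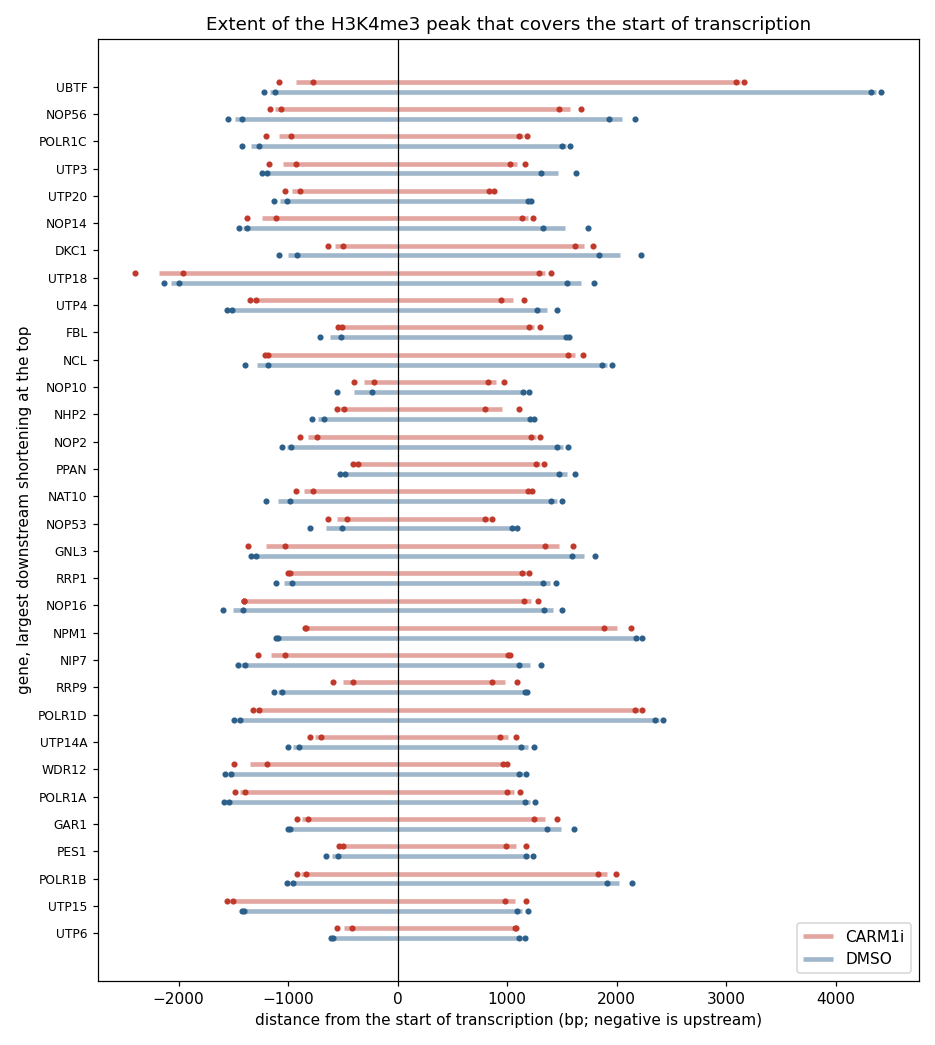
Extent in bp of the H3K4me3 peak upstream (negative) and downstream of the start of transcription for 32 listed genes (red, inhibitor; blue, DMSO; dots, single libraries; bars, mean of 2 libraries), with the largest downstream difference at the top. The red bars end short of the blue bars downstream in 32 of 32 genes and upstream in all but UTP15 and UTP18, where 93.5% and 94.5% of all genes were shorter on those sides.

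2 genes had no H3K4me3 peak near either end. PES1, which acts with BOP1 and WDR12 in large subunit maturation, did carry the mark: a peak of 1670 and 1532 bp with the inhibitor and 1890 and 1712 bp with DMSO covered the start that the promoter table gives (chromosome 22, position 30591910). That start lies 15103 bp inside the outer limit of the RefSeq gene, so the rule of gene ends passes over it. Both inhibitor widths lay below both DMSO widths there (log2 ratio -0.17 ± 0.13 SE in a limma fit on starts alone, adjusted p = 0.26). RRN3, the factor that recruits RNA polymerase I to ribosomal DNA promoters, had no peak of any mark in any list (chromosome 16, 15060022 to 15094335). The nearest peak of the 12 lists lay 652809 bp away, and 18 protein-coding genes, RRN3 among them, lie in or reach into that stretch on either side. The absence of peaks is therefore not particular to RRN3 and does not show that the gene lacks these marks. Why the stretch holds no peak was not tested.

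H3K27ac was present at fewer of these genes than H3K4me3. It was found in at least 1 library at 22 of 40 genes (55.0%, against 26.1% of all genes), but in both DMSO libraries at 8 of 40, against 11.7% of all genes. Among genes with H3K4me3 in all libraries, that share was 21.1% for the listed genes and 22.6% overall. Of the 8, 3 lost the mark (NOP56, GAR1 and UTP3), 3 kept it in all 4 libraries (UBTF, NAT10 and UTP18), and NCL and NIP7 kept it in inhibitor replicate 2 alone. The loss of 3 of 8 (37.5%) stands beside 28.0% of the 2329 genes with H3K27ac in both DMSO libraries. The mark was gained at 0 of 20 genes without a DMSO peak, against 0.413% of such genes. The count of losses was 5 of 8 without inhibitor replicate 2 and 10 of 20 without DMSO replicate 2, where 36.7% and 51.3% of all such genes lost the mark.

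NOP56 had no H3K27ac peak in either inhibitor library, against peaks of 2436 and 1363 bp with DMSO, which both lay at its start and overlap each other. Its loss held in every alternative run. UTP3, a processome protein, had none with the inhibitor, against peaks of 1745 and 816 bp with DMSO. The smaller UTP3 peak stood at the width percentile 2.7 of its list, and UTP3 no longer counted as lost in lists cut to equal length. GAR1 also had none with the inhibitor, but its DMSO peaks were at different places: 1799 bp at the start in replicate 1 and 1466 bp at the 3' end in replicate 2. With the start alone, GAR1 no longer counted as lost. All 3 genes kept H3K4me3 in all 4 libraries, as did 626 of all 651 genes that lost H3K27ac.

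UBTF kept a wide H3K27ac peak at its start, of 2957 and 3243 bp with the inhibitor and 5821 and 4100 bp with DMSO. The inhibitor widths lay below both DMSO widths, as at 34.4% of all genes tested, and the log2 ratio of -0.66 ± 0.31 SE did not pass (limma adjusted p = 0.608). UTP18 had 1944 and 1676 bp with the inhibitor and 2273 and 1840 bp with DMSO, overlapping groups, in a peak shared with MBTD1. NAT10, an RNA cytidine acetyltransferase, had 3095 and 3184 bp with the inhibitor and 3661 and 2380 bp with DMSO, but this peak lay at its 3' end and not at its start. Of the 3 genes tested, limma called 0 (0 with an unadjusted p under 0.05), as it did 0 of all 1130 genes with H3K27ac in every library (104 with an unadjusted p under 0.05). With so few calls over all genes, this count does not show that the widths were alike.

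NCL had no H3K27ac peak in inhibitor replicate 1 and 1638 bp in replicate 2, against 2488 and 1981 bp with DMSO. NIP7, a large subunit assembly factor, had none and 1180 bp with the inhibitor, against 1190 and 1093 bp with DMSO. DKC1 ran differently from these: 1253 and 1092 bp with the inhibitor, against 2110 bp and no peak with DMSO. NPM1, POLR1A, NOP14, UTP14A, UTP23, BOP1 and PPAN had H3K27ac in DMSO replicate 1 alone (7 of 40, 17.5%, against 9.17% of all genes), the library with the longest H3K27ac list. POLR1B and GNL3 had the mark in replicate 1 of both groups, and UTP4 and NOP53 in inhibitor replicate 2 and DMSO replicate 1. FBL and NOP16 had it in inhibitor replicate 2 alone.

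H3K4me1 was present in at least 1 library at 25 of 40 genes (62.5%, against 38.3% of all genes). It was present in both DMSO libraries at 10 of 40 genes, against 13.1% of all genes, and 7 of these 10 lost it (70.0%), beside 55.4% of the 2626 such genes overall. The 7 were FBL, NHP2, POLR1E, UBTF, BOP1, PPAN and NIP7, none of which had a peak in either inhibitor library. UBTF had 3363 and 1797 bp of H3K4me1 with DMSO, with a peak of 1797 bp at its start in each DMSO library. POLR1E had 2502 and 801 bp with DMSO, and NHP2 had 3172 and 979 bp. The peaks of 801 and 979 bp stood at the width percentiles 0.34 and 4.2 of the DMSO replicate 2 list. BOP1, the partner of PES1, had 5863 and 1745 bp with DMSO, PPAN, a large subunit factor, 7630 and 2676 bp, and NIP7 1510 and 1166 bp. FBL's peak in both DMSO libraries (2224 and 1352 bp) was the one it shares with DYRK1B. FBL was not among the losses with windows of 1 kb, nor UBTF with windows of 5 kb. Another 12 of 40 genes (30.0%) had H3K4me1 in DMSO replicate 1 alone, the library with the longest list, beside 23.2% of all genes. These held 8 of the 12 processome genes, and a difference between roles was not tested.

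Many of these H3K4me1 peaks belong to more than 1 gene and to long DMSO lists. With peaks at 1 gene only, 2 of 4 listed genes lost the mark, beside 59.7% of all such genes. In lists cut to the length of the shortest H3K4me1 list, 0 of 2 lost it, beside 25.7%. Without DMSO replicate 2 the count was 19 of 24, beside 80.7%. The mark was gained at 0 of 16 genes (0.0243% of such genes overall). RRP1, an assembly factor of the large subunit, was the gene with H3K4me1 in all 4 libraries, 3194 and 2519 bp with the inhibitor and 11099 and 3761 bp with DMSO, with a 3' end peak common to all 4. The inhibitor widths lay below both DMSO widths, as at 83.6% of the genes tested. Its log2 ratio of -1.19 ± 0.59 SE did not pass (limma adjusted p = 0.137), where the median of the 636 genes tested was -1.13 and 22.6% were called narrower. The ratio rested on the DMSO libraries: it was -0.41 without DMSO replicate 1 and -1.97 without DMSO replicate 2, where limma called it, as it did 49.6% of all genes tested. NAT10 and NOP2 kept a peak in inhibitor replicate 2, of 3705 and 1446 bp, and both of these lay at the 3' end.

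The wider ribosome biogenesis list, 128 further genes of the same pathway, was described in the same way. H3K4me3 was present in all 4 libraries at 120 and lost at 0 of 121, and limma called 15 of 120 (12.5%) narrower and 0 wider, against 19.6% and 0.0511% of all genes, with a median log2 ratio of -0.27. H3K27ac was lost at 4 of 17 genes (23.5%, against 28.0% of all genes): DDX51, GTPBP4, NOC4L and NVL. DDX51 and NOC4L count the same peak, absent with the inhibitor and of 1374 and 1161 bp with DMSO. NVL, an ATPase of large subunit assembly, had none with the inhibitor and 1820 and 1867 bp with DMSO. H3K4me1 was lost at 10 of 13 genes (76.9%, against 55.4%), which were BUD23, EXOSC1, EXOSC4, FTSJ3, MTREX, NVL, RBM34, RUVBL2, TBL3 and TRMT112. H3K27ac was gained at 0 of 77 genes without a DMSO peak, H3K4me3 at 0 of 7 and H3K4me1 at 0 of 62. Over all genes, 0.413%, 0.0114% and 0.0243% of such genes gained these marks.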

How the data were processed

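ChIP-seq libraries of H3K27ac, H3K4me3 and H3K4me1 from Toledo cells were compared, 2 per mark and treatment, grouped by their titles. The submitters' processing notes name hg38, MACS 1.4.2 and Bowtie 1.1.2. The sources used here give no peak calling threshold or read filter, and the 4 input samples were not analysed here. Each peak list deposited by the authors holds chromosome, start and end, with no score. Width moves with depth and enrichment, and depth is unknown.

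Genes, ends and promoters came from RefSeq tables (GRCh38.p14). A peak counted for a gene if at least 1 bp lay within 2 kb of an end. Summed widths, as log2 of bp with no pseudocount, were compared with limma 3.58.1 (trend, R 4.3.3) over all genes with a peak in all 4 libraries, with Benjamini-Hochberg adjustment and a threshold of 0.05. Losses and gains are counts with no test, since 2 libraries against 2 allow no exact permutation p below 0.333. The fit was tested on simulated data. Alternatives were windows of 1 and 5 kb, starts alone, lists cut to equal length by width, an overlap of 500 bp, peaks at 1 gene only, each library left out, centred widths and a replicate block. Values were given per library for genes that lost or gained a mark, that had H3K27ac in both libraries of a group, that passed the width test, that had the 5 lowest or highest H3K4me3 ratios, and for 8 genes fixed by name. The 40 genes and the lists were chosen with earlier results of these data known. PES1, RRN3, the H3K4me1 values of RRP1 and NOP2, the ratio of NOP10 and the measurement on each side of the start were singled out after their values were seen.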

Additional observations from a re-analysis of the deposited data

How the results depend on the processing

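Read depth is unknown, and a site with no listed peak may still carry the mark. With centred widths the median log2 ratio turned to 0.0026 for H3K4me3, 0.016 for H3K27ac (3 genes) and 0.042 for H3K4me1 (1 gene), and 0 of 38 genes changed H3K4me3 width by limma (7 with an unadjusted p under 0.05). The ratios of POLR1A (0.14), POLR1D (0.15), POLR1B (0.18), UTP18 (0.20), NPM1 (0.076), NCL (0.11) and FBL (0.13) turned positive with it, by construction of the centring. Genes with changed H3K4me3 width numbered 3 of 38 with windows of 5 kb, beside 16.8% of all genes, and H3K4me1 width changed at 2 of 2, beside 37.1%. H3K4me1 was lost at 4 of 4 genes with starts alone, 0 of 2 in lists of equal length and 2 of 4 with peaks at 1 gene only, beside 65.3%, 25.7% and 59.7% of all such genes.

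With 1 library left out, ranges were 3 to 10 (H3K27ac lost), 0 to 2 (H3K27ac gained), 7 to 19 (H3K4me1 lost), 0 to 1 (H3K4me1 gained), 2 to 20 (H3K4me3 width changed) and 0 to 1 (H3K4me1 width changed). The highest gains were 2 of 20 genes for H3K27ac and 1 of 16 for H3K4me1, both without inhibitor replicate 1, beside 0.953% and 0.194% of all such genes, and the H3K4me1 width call was 1 of 1 without DMSO replicate 2, beside 49.6%. Median log2 ratios ranged from -0.59 to -0.028 for H3K27ac and from -1.97 to -0.41 for H3K4me1. Single ratios ranged from -0.20 to 0.023 for UTP18 and from -0.0098 to 0.067 for UTP15. H3K4me3 losses stayed at 0 in every setting run.

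Replicate numbers are shared between treatments, and nothing in the labels ties same-numbered libraries. Their deviations correlated at 0.097 for H3K27ac, 0.0559 for H3K4me3 and -0.0143 for H3K4me1 across genes. A correlation across genes cannot show an offset common to all genes of a library, so pairing stays undecided. The median H3K4me3 width over all genes was larger in replicate 1 of both treatments: 2086 against 1910 bp with the inhibitor and 2527 against 2357 bp with DMSO. With a replicate block limma called 19 of 38 genes for H3K4me3 width, against 48.0% of all genes tested, and 0 for the other marks.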
